A study of Mus musculus with 6 samples.

Results

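Neurotrophic factors and their receptors were examined in sorted osteoblasts (OBs) through 8 genes, chosen by symbol from the 23284 genes listed for each sample. The ligands were *Bdnf*, *Gdnf* and *Ntf3*, and the receptors were *Ngfr*, *Ntrk2*, *Ntrk3*, *Gfra1* and *Ret*. The 8 genes had been chosen from earlier results of these data, with their FPKM (fragments scaled to the exon length of the gene and to the mapped reads of the sample) in the same 6 samples and on both days in view. Their values and their differences between the days are therefore a description, and no p-value is given for them. All 8 symbols were found in each of the 6 samples, and 6 of the 8 genes had a mean over the samples above 0.1 FPKM, the limit for entering the comparison between the days.

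The samples were ECFP+ OBs from BMP-2-induced ectopic bone, taken on day 10 (n = 3) and day 14 (n = 3) after a collagen sponge with 2.5 μg of BMP-2, a bone-inducing growth factor, had been placed under the skin. All mice were male *Col2.3*-ECFP animals aged 12 to 16 weeks, in which ECFP, a cyan fluorescent protein, is made in OBs under a fragment of the type I collagen promoter, so the cells studied were those with this transgene active. There was no group without BMP-2. Tissue was digested with 0.25% trypsin for 15 min and 0.2% collagenase II for 40 min at 37 °C, with the collagenase step done 1 time on day 10 and 2 times on day 14, and cells were then sorted after CD45+ and dead cells were gated out. The day and the number of digestions therefore cannot be told apart. The titles place the 3 later samples on day 14, which was used here, whereas their descriptions give day 14, 15 and 16 for replicates 1, 2 and 3. The labels call the replicates biological, and whether a replicate held 1 animal or pooled animals was not given in the sources used here.

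Neurotrophins are secreted proteins that keep neurons alive and guide the growth of their fibres. BDNF signals mainly through the receptor tyrosine kinase TrkB, encoded by *Ntrk2*, and NT-3, the product of *Ntf3*, through TrkC, encoded by *Ntrk3*, while the p75 receptor encoded by *Ngfr* binds every neurotrophin and the uncleaved proforms. GDNF belongs to another family and signals through a complex of the membrane-anchored co-receptor GFRα1 and the tyrosine kinase RET. In bone, these factors are known as cues for sensory and sympathetic nerve fibres, and several are also made by skeletal cells.

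The samples gave an estimated 4558000 to 7790000 mapped reads each, read from the steps between low FPKM values, and 16646 to 19698 genes above 0. Among the 4605 genes with a mean of at least 10 FPKM, 88 were listed at 0 in at least 1 sample. Whether such a 0 is an absent transcript or a failed estimate was not examined. All 7 OB markers were above 0 in every sample, from 0.979 FPKM for *Dlx5* in day 14 replicate 1 to 34157 FPKM for *Col1a1*, which encodes the main collagen chain of bone. The summed OB markers were 54192, 52070 and 28368 FPKM on day 10 and 19619, 38269 and 15669 FPKM on day 14. Day 14 replicate 2 stood apart from the other 2 samples of its day, with the highest summed chondrocyte markers of all samples (1105 FPKM, against 117 and 74) and the lowest summed myeloid markers (20.2 FPKM, against 262 and 615). The members' log2 fold changes are given with and without this sample. The data are from bulk cells, in which fewer cells of a type and less RNA per cell cannot be told apart.

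Of the 6 members that entered the comparison, *Bdnf* and *Gdnf* were more than 2-fold higher on day 14, with log2 fold changes of 1.10 (SE 0.38) and 1.33 (SE 0.31) on the scale of log2(FPKM + 0.1). The background was 1026 of 19526 genes, or 5.25%, more than 2-fold higher. No member was more than 2-fold lower, against a background of 8.39%. In 3 members, *Bdnf*, *Gdnf* and *Ret*, every day 14 sample lay above every day 10 sample, against 7.59% of the genes, and in no member did every day 14 sample lie below (background 6.67%). The median log2 fold change of the 6 members was 0.67, beside −0.04 over all genes. Because the same days were in view when the genes were chosen, nothing is read from these counts about the group.

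**Figure D1:**
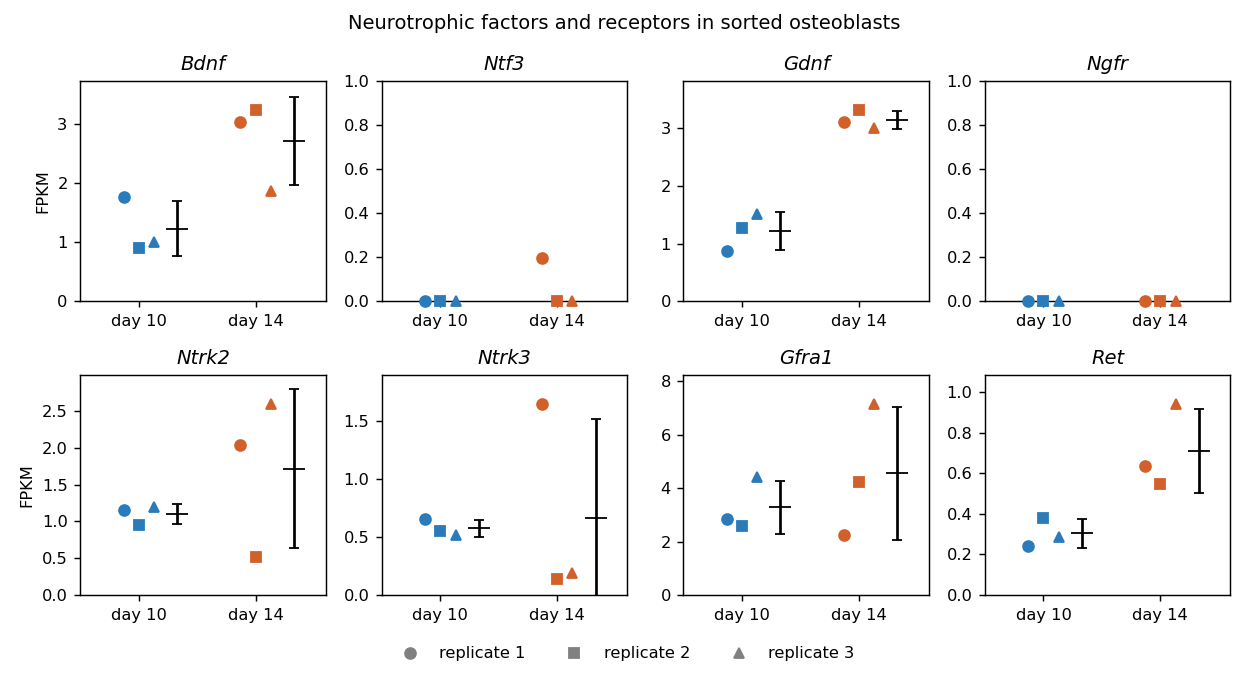
FPKM (vertical axis, linear, a separate range in each panel) of the 8 members on day 10 (blue) and day 14 (orange). Points are single samples with the replicate given by the symbol, and bars are the mean ± SD (n = 3), left out for *Ntf3* and *Ngfr* and cut off at 0 for *Ntrk3* on day 14. *Bdnf*, *Gdnf* and *Ret* have all 3 day 14 samples above all 3 day 10 samples, *Ntrk2*, *Ntrk3* and *Gfra1* have overlapping days, and *Ntf3* and *Ngfr* lie at or near 0.

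Among the ligands, *Gdnf*, which encodes a survival factor for motor and sensory neurons, had the tightest values. On day 10 the 3 samples held 0.865, 1.27 and 1.52 FPKM, and on day 14 they held 3.11, 3.32 and 3.0 FPKM. The lowest day 14 value was thus well above the highest day 10 value, and the day 14 samples differed little among themselves. The means were 1.22 ± 0.328 FPKM (SD, n = 3) on day 10 and 3.14 ± 0.161 FPKM (SD, n = 3) on day 14, a fold change of 2.52 for FPKM + 0.1. *Gdnf* (chr15:7810846-7837575, plus strand, mm10) has 1 coding transcript of 3674 bases in GENCODE, while RefSeq places transcript starts elsewhere, so reads estimated from this length are approximate. The values corresponded to an estimated 14.7 to 40.8 reads on day 10 and 49.0 to 73.2 reads on day 14. Without day 14 replicate 2 the log2 fold change was 1.29.

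*Bdnf*, which encodes brain-derived neurotrophic factor, held 1.77, 0.908 and 1.01 FPKM on day 10 and 3.03, 3.24 and 1.86 FPKM on day 14. The days were separated only narrowly, since day 10 replicate 1 and day 14 replicate 3 lay close to each other. The means were 1.23 ± 0.471 and 2.71 ± 0.738 FPKM (SD, n = 3), a fold change of 2.14 for FPKM + 0.1. Leaving out 1 sample at a time moved the log2 fold change between 0.92 and 1.37, and it was 0.95 without day 14 replicate 2, so that the 2-fold limit was not passed in each case. *Bdnf* (chr2:109674700-109727007, plus strand) has 11 coding transcripts of 3707 to 4266 bases in GENCODE, which start at different first exons and share the coding exon. The FPKM is 1 value for the gene, and the values corresponded to an estimated 17.4 to 35.1 reads on day 10 and 45.9 to 77.8 reads on day 14. An antisense gene, *Gm45346*, shares 497 exonic bases with *Bdnf*. Strand was not stated for the libraries, and reads of the 2 genes cannot then be told apart.

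*Ntf3*, which encodes neurotrophin-3, was listed at 0 in all 3 day 10 samples and in day 14 replicates 2 and 3. The remaining sample, day 14 replicate 1, held 0.197 FPKM, which corresponds to about 1 read. A level under 3 reads, here 0.305 to 0.521 FPKM depending on the sample, was not detectable at this depth. No fold change is given, and the gene did not enter the comparison. The summed FPKM of the 3 ligands, which is a level, was 2.64, 2.17 and 2.53 on day 10 and 6.33, 6.55 and 4.86 on day 14.

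Since *Bdnf* and *Gdnf* were the members more than 2-fold higher on day 14, the bases just before their transcription starts were searched. RefSeq (GRCm38.p6) gave 14 windows of 250 bases before a transcript start for 6 of the 8 genes, of which 7 were of *Bdnf* and 2 of *Gdnf*, and *Ntrk3* and *Ret* were not matched. The windows were searched on both strands for 9 motifs. These were the part site of the cAMP response element as TGACG and its full site as TGACGTCA, which contains the part site, AP-1 as TGAGTCA, RUNX as TGTGGT, EGR as GCGGGGGCG, a SMAD palindrome as GTCTAGAC, the TATA box as TATAAA, the CArG box and the NF-kB site. Of the 14 windows, 4 held a match and 10 held none. The 2 windows with TGACG, 1 of each gene, are shown because they hold the same letters at a like distance from the start, with the matches in capitals and TGACG read as CGTCA on the strand shown.
*Bdnf*, chr2:109692186-109692435, plus strand: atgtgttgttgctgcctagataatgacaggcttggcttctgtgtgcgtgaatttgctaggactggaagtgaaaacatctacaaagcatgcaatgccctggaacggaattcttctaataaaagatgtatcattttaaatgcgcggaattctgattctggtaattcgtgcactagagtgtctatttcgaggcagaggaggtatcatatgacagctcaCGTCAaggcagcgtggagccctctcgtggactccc
*Gdnf*, chr15:7809798-7810047, plus strand: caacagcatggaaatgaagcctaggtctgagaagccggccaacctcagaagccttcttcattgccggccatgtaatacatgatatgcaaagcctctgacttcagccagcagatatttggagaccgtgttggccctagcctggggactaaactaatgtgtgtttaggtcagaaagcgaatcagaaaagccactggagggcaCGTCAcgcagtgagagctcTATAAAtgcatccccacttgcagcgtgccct
In *Bdnf* the match began 35 bases before the start and in *Gdnf* 50 bases before it, and the *Gdnf* window also held TATAAA at 31 bases before the start. TGACG was found in 17.8% of the 32851 windows of this length over all genes and TATAAA in 12.4%, so both are common. The other matches were an NF-kB site in another *Bdnf* window and TGTGGT before *Ntrk2*, found in 5.0% and 14.0% of all windows. TGACGTCA (1.55%), TGAGTCA (4.46%), GCGGGGGCG (2.57%), GTCTAGAC (0.167%) and the CArG box (1.47%) had no match before any member. The windows shown were picked after the matches were seen, and a match of letters says nothing of binding. The FPKM do not tell from which of its 7 windowed starts *Bdnf* was transcribed.

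Of the neurotrophin receptors, *Ngfr*, which encodes p75, was listed at 0 in all 6 samples. For its 3446-base transcript (chr11:95568818-95587735, minus strand), 3 reads correspond to 0.119 to 0.204 FPKM, which is the level this depth could not have shown. Over all genes, 6.81% were listed at 0 in every sample.

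*Ntrk2*, which encodes TrkB, held 1.16, 0.945 and 1.19 FPKM on day 10 and 2.04, 0.514 and 2.60 FPKM on day 14. The day 10 samples lay close together, whereas day 14 held both the 2 highest values and the lowest value of all, the last in replicate 2. The means were 1.10 ± 0.134 and 1.72 ± 1.08 FPKM (SD, n = 3), with a log2 fold change of 0.35 (SE 0.57), smaller than its own error. Without day 14 replicate 2 it was 1.01, and without day 14 replicate 3 it was −0.06, so the direction rested on single samples. *Ntrk2* (chr13:58806569-59133970, plus strand) has 7 coding transcripts of 2284 to 8744 bases, some of which encode truncated receptors without the kinase, and 1 FPKM value per gene does not separate them.

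*Ntrk3*, which encodes TrkC, was even in the day 10 samples, at 0.658, 0.551 and 0.515 FPKM. On day 14 replicate 1 held 1.65 FPKM, the highest value of the 6 samples, while replicates 2 and 3 held 0.139 and 0.192 FPKM, the 2 lowest. The means were 0.575 ± 0.0746 and 0.66 ± 0.857 FPKM (SD, n = 3), and the log2 fold change was −0.44 (SE 0.79), of the opposite sign to the difference between the means. It was −1.35 without day 14 replicate 1, which is more than 2-fold lower, and 0.09 without day 14 replicate 2. The 6 coding transcripts of *Ntrk3* (chr7:78175959-78738012, minus strand) run from 423 to 19703 bases, so no number of reads could be estimated closely. The only sample with *Ntf3*, which encodes the ligand of TrkC, above 0 was also the sample with the highest *Ntrk3*. About 1 estimated read does not separate that sample from the others.

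In the GDNF receptor complex, *Gfra1*, which encodes the ligand-binding co-receptor, had the highest level of all members. It held 2.84, 2.59 and 4.42 FPKM on day 10 and 2.25, 4.24 and 7.17 FPKM on day 14. The days overlapped, since day 14 replicate 1 was the lowest sample of all and replicate 3 the highest. The means were 3.28 ± 0.995 and 4.56 ± 2.48 FPKM (SD, n = 3), with a log2 fold change of 0.35 (SE 0.42). Without day 14 replicate 3 it was −0.05, without replicate 1 it was 0.77, and without replicate 2 it was 0.33. *Gfra1* (chr19:58235604-58455909, minus strand) shares 416 exonic bases with the antisense gene *Gm16277*, with the same limit on strand as for *Bdnf*. Its 8 coding transcripts run from 349 to 4641 bases, so no number of reads could be estimated closely.

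*Ret*, which encodes the kinase of the complex, held 0.244, 0.382 and 0.285 FPKM on day 10 and 0.634, 0.548 and 0.943 FPKM on day 14. Every day 14 sample lay above every day 10 sample, at levels under 1 FPKM throughout. The means were 0.304 ± 0.0709 and 0.708 ± 0.207 FPKM (SD, n = 3), and the log2 fold change was 0.99 (SE 0.51), a fold change of 1.98 for FPKM + 0.1, just inside the 2-fold limit, with *Bdnf* at 2.14 the nearest member beyond it. The values corresponded to an estimated 5.1 to 11.6 reads on day 10 and 12.4 to 34.9 reads on day 14, fewer than for *Bdnf* or *Gdnf*, and the fold change depended on the value added before the logarithm. It was 0.38 on the log2 scale when 1 FPKM was added and 1.18 when 0.01 FPKM was added. The 2-fold limit was passed without day 14 replicate 2 (log2 fold change 1.13), day 10 replicate 2 (1.12) or day 14 replicate 1 (1.04). *Ret* lies at chr6:118151745-118197718 on the minus strand.

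The co-receptor was above the kinase in every sample. The ratio of *Gfra1* to *Ret*, both in FPKM, was 11.6, 6.78 and 15.5 on day 10 and 3.54, 7.74 and 7.61 on day 14. It depends on the length used for *Gfra1*, whose transcripts differ widely in length. The ratios of the days overlapped, with day 14 replicate 2 above day 10 replicate 2. The ligand *Gdnf* lay above *Ret* in every sample as well, and above *Gfra1* only in day 14 replicate 1.

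By mean FPKM over the 6 samples the order was *Gfra1* (3.92), *Gdnf* (2.18), *Bdnf* (1.97), *Ntrk2* (1.41), *Ntrk3* (0.618), *Ret* (0.506), *Ntf3* (0.0328) and *Ngfr* (0). On day 10 the lowest *Gfra1* sample was above the highest sample of every other member, *Gdnf*, *Bdnf* and *Ntrk2* overlapped, and *Ntrk3* lay below these and above *Ret* in every sample. On day 14 *Gfra1*, *Gdnf* and *Bdnf* overlapped with each other, *Ntrk2* overlapped with *Gfra1* and *Bdnf*, and *Ntrk2*, *Ntrk3* and *Ret* overlapped with each other. Among the 23284 genes ranked by mean FPKM from the highest, *Gfra1* stood at 7558, *Gdnf* at 9189, *Bdnf* at 9468, *Ntrk2* at 10317, *Ntrk3* at 12569 and *Ret* at 13262. These 6 members were therefore of moderate to low level in these cells, while *Ntf3* and *Ngfr* lay under the estimated level of 3 reads in every sample.

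**Figure D2:**
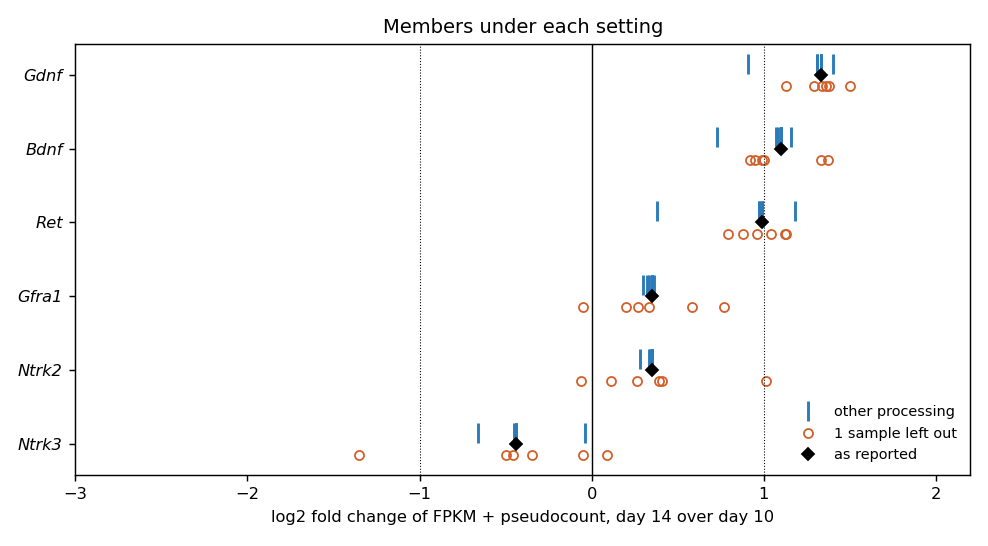
Log2 fold change of FPKM plus the added value, day 14 over day 10 (horizontal axis), for the 6 members compared. Diamonds are the values as reported, blue ticks other processing and open circles fits with 1 sample left out, and dotted lines mark 2-fold. *Gdnf* stays between 0.91 and 1.5 and *Bdnf* between 0.73 and 1.37, while *Ntrk2*, *Ntrk3* and *Gfra1* have values on both sides of 0.

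The related genes that are not members are given with p-values from the limma fit to all 19526 genes. Their lists, too, were chosen with earlier results of these data known, so these p-values are descriptive. Of 68 related genes in 7 lists, 64 entered the comparison, and none had a limma adjusted p under 0.05. The background was 3 of 19526 genes (0.0154%). At an unadjusted p under 0.05 there were 8 of the 64 related genes, beside 10.0% of all genes. More than 2-fold higher were 4 of the 64 genes (*Cntf*, *Lingo1*, *Plat* and *Arc*), beside 5.25% of all genes. More than 2-fold lower were 3 (*Ptprz1*, *Pcsk6* and *Mmp7*), beside 8.39% of all genes. The median log2 fold change was 0.06. Fully above on day 14 were 4 genes (*Mdk*, *Lingo1*, *Shc1* and *Plat*), beside 7.59% of all genes, and fully below was 1 (*Mmp7*), beside 6.67%. *Cntf*, *Lingo1* and *Mmp7* had means under 1 FPKM, were listed at 0 in at least 1 sample, and are named only because they make up these counts. The values of the related genes below are therefore a description.

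The neurotrophin family list leaves out the members, and the 5 genes compared encode sortilin-like receptors (*Sort1*, *Sorcs1*, *Sorcs2*, *Sorcs3* and *Sorl1*). None of the 5 was more than 2-fold apart or separated between the days, and the median log2 fold change was −0.05. No neurotrophin or Trk receptor gene was among them, and *Ntf5*, a neurotrophin gene of the list, did not enter the comparison. The highest of the list, *Sorcs2*, which encodes a receptor for proneurotrophins, held 22 to 31 FPKM and a log2 fold change of −0.05 (SE 0.18, limma adjusted p 0.964). *Sort1*, encoding sortilin, the partner of p75 for proforms, held 12.1, 7.52 and 5.49 FPKM on day 10 and 3.67, 9.03 and 2.1 FPKM on day 14, with overlapping days.

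The GDNF family list leaves out the members *Gdnf*, *Gfra1* and *Ret*. None of its 7 genes compared was more than 2-fold apart or separated between the days, and the median log2 fold change was −0.08. *Ncam1*, an adhesion molecule that can also bind GDNF with GFRα1, was the highest, at 31.9 ± 4.7 and 40.4 ± 8.34 FPKM (SD, n = 3), with a log2 fold change of 0.33 (SE 0.20) and a limma adjusted p of 0.641. Of the other co-receptors, *Gfra2*, for neurturin, held 1.84 to 5.44 FPKM and *Gfra4*, for persephin, 2.94 to 6.75 FPKM, while *Gfra3*, for artemin, was listed at 0 in all 6 samples and *Gfral*, for GDF15, held 0 to 0.763 FPKM. The ligand gene *Artn* held 0.922 to 2.9 FPKM and *Nrtn* 0.157 to 1.5 FPKM, both with overlapping days.

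**Figure D3:**
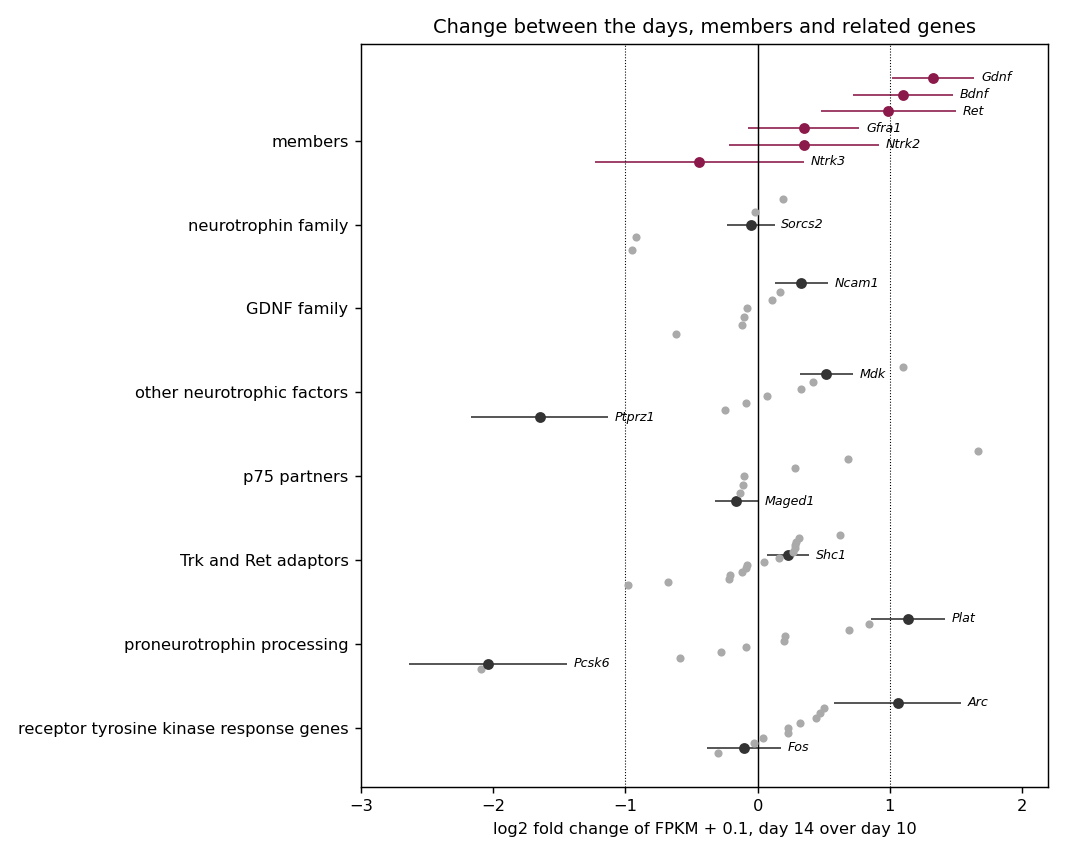
Log2 fold change of FPKM + 0.1, day 14 over day 10 (horizontal axis), for the 6 members compared (purple) and the 64 related genes by list. Bars are ± SE for the members and the named related genes (black), grey points are the remaining related genes, and dotted lines mark 2-fold. *Gdnf* lies at 1.33 and *Bdnf* at 1.10. The genes of the neurotrophin family and GDNF family lists, which leave out the members, lie within the 2-fold lines. The members were chosen with their values in view, so no contrast between them and the lists is read from the figure.

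Among other neurotrophic factors, *Mdk*, which encodes the heparin-binding growth factor midkine, was the highest at 90.7 ± 20.8 and 128 ± 7.79 FPKM (SD, n = 3), with separated days, a log2 fold change of 0.52 (SE 0.20) and a limma adjusted p of 0.438. Its receptor gene *Ptprz1* was lower on day 14, at 9.7 ± 4.07 and 3.35 ± 2.32 FPKM, with overlapping days and a log2 fold change of −1.65 (SE 0.52, limma adjusted p 0.373). It was −1.13 without day 14 replicate 3 and −2.16 without day 14 replicate 2. Of the 8 genes of this list 1 was more than 2-fold higher and 1 lower, beside 5.25% and 8.39% of all genes, and the median was 0.20. Among 7 partners of p75, 1 was more than 2-fold higher, beside 5.25% of all genes. The highest, *Maged1*, held 240 ± 16.8 and 216 ± 24.7 FPKM, with a log2 fold change of −0.16 (SE 0.16, limma adjusted p 0.819). Of the partners, *Lingo1* and *Rtn4r* had means under 1 FPKM.

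Genes that act downstream of the receptors lay mostly within 2-fold. Of 16 adaptors of Trk and RET receptors none was more than 2-fold apart, with a median log2 fold change of 0.11, and *Shc1*, the highest, held 25.6 ± 2.15 and 30.2 ± 3.98 FPKM with narrowly separated days (log2 fold change 0.23, SE 0.16, limma adjusted p 0.695). *Dok5*, an adaptor named after its values were seen, held 16.9, 16.6 and 13.6 FPKM on day 10 and 6.03, 14.5 and 5.53 FPKM on day 14 (log2 fold change −0.98, SE 0.35, limma adjusted p 0.405). Without day 14 replicate 2, and with the low-value filter set again, its log2 fold change was −1.42 with a limma adjusted p of 0.039, in a range of 0.039 to 0.997 over the alternatives. Of 11 response genes of receptor tyrosine kinases compared, 1 was more than 2-fold higher, beside 5.25% of all genes, with a median of 0.23. *Fos* was the highest, at 1596 ± 356 and 1479 ± 204 FPKM (log2 fold change −0.10, SE 0.28, limma adjusted p 0.954). *Arc*, which neurons switch on after BDNF among other stimuli, held 5.82 ± 2.13 and 13.9 ± 10.3 FPKM (log2 fold change 1.06, SE 0.48, limma adjusted p 0.52). Its days overlapped, and without day 14 replicate 2, which held 25.7 FPKM, the log2 fold change was 0.50.

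Of 10 enzymes that process proneurotrophins, 1 was more than 2-fold higher and 2 were lower, beside 5.25% and 8.39% of all genes. *Plat*, the tissue plasminogen activator that starts cleavage of proBDNF through plasmin, held 123, 152 and 228 FPKM on day 10 and 396, 262 and 439 FPKM on day 14. The days did not overlap, and the log2 fold change was 1.14 (SE 0.28, limma adjusted p 0.305), or 0.94 without day 10 replicate 1 and 0.99 without day 14 replicate 3. *Pcsk6*, a proprotein convertase, held 169, 120 and 60.1 FPKM on day 10 and 25.1, 63.4 and 10.9 FPKM on day 14, where replicate 2 overlapped with day 10 (log2 fold change −2.04, SE 0.60, limma adjusted p 0.34). It was −2.68 without day 14 replicate 2 and −1.42 without day 14 replicate 3. *Furin*, the general convertase of proneurotrophins, held 27.7 to 43.9 FPKM over the 6 samples. *Plg*, which encodes the precursor of plasmin, was listed at 0 in 3 samples and did not pass 0.515 FPKM, and *Pcsk1* and *Mmp7* also had means under 1 FPKM.

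Other cell types that make or receive these factors were followed through marker lists. No marker had a limma adjusted p under 0.05, while at an unadjusted p under 0.05, where 10.0% of all genes lay, there were 2 of 7 OB, 2 of 9 neuron, 3 of 10 chondrocyte, 1 of 6 endothelial and 4 of 8 pericyte and progenitor markers compared. The part of these cells in the members' values was not tested. The 6 Schwann cell markers, of glia that make neurotrophic factors, summed to 3.81, 2.79 and 3.48 FPKM on day 10 and 2.49, 3.21 and 2.86 FPKM on day 14, which overlapped. Most of each sum came from *Mbp* (0.846 to 1.83 FPKM) and *S100b* (0.15 to 2.11 FPKM). Of the 6 markers, 3 were at 0 in at least 1 sample (*Sox10*, *Foxd3* and *Erbb3*), and the defining marker *Sox10* did not pass 0.0873 FPKM. The 10 neuron markers summed to 35.3, 19.1 and 23.9 FPKM on day 10 and 11.9, 20.3 and 13.5 FPKM on day 14, mostly from *Tubb3* and *Stmn2*, and 3 (*Elavl3*, *Prph* and *Nefl*) were at 0 in at least 1 sample. The sums of the neuron markers overlapped between the days as well.

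The 8 pericyte and mesenchymal progenitor markers summed to 452, 495 and 698 FPKM on day 10 and 1294, 662 and 1253 FPKM on day 14, which overlapped. Of these markers, 2 (*Pdgfrb* and *Cxcl12*) lay fully above on day 14, as 7.59% of all genes did. *Lepr* lay fully below, as 6.67% of all genes did. The 6 endothelial markers summed to 1.22, 2.63 and 2.99 FPKM on day 10 and 6.03, 3.08 and 3.96 FPKM on day 14. The endothelial sum was thus fully above on day 14, but only narrowly (3.08 against 2.99 FPKM). *Pecam1* (0.268 to 1.35 FPKM) and *Emcn* (0 to 0.583 FPKM) were also fully above at low levels, as 7.59% of all genes were fully above. *Emcn* was at 0 in 2 day 10 samples. The 9 myeloid markers summed to 36.1, 161 and 122 FPKM on day 10 and 262, 20.2 and 615 FPKM on day 14, *Lyz2* having the highest mean, with *Fcer1g* and *Emr1* at 0 in day 14 replicate 2. *Gdnf* (3.32 FPKM) and *Bdnf* (3.24 FPKM) were at their highest in this sample, while *Ntrk2* (0.514 FPKM) and *Ntrk3* (0.139 FPKM) were at their lowest. The 10 chondrocyte markers summed to 859, 759 and 429 FPKM on day 10, *Col2a1* being the highest. The 7 skeletal muscle markers summed to 0.333 to 9.23 FPKM, with *Acta1* the only marker above 0 in all samples.

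**Figure D4:**
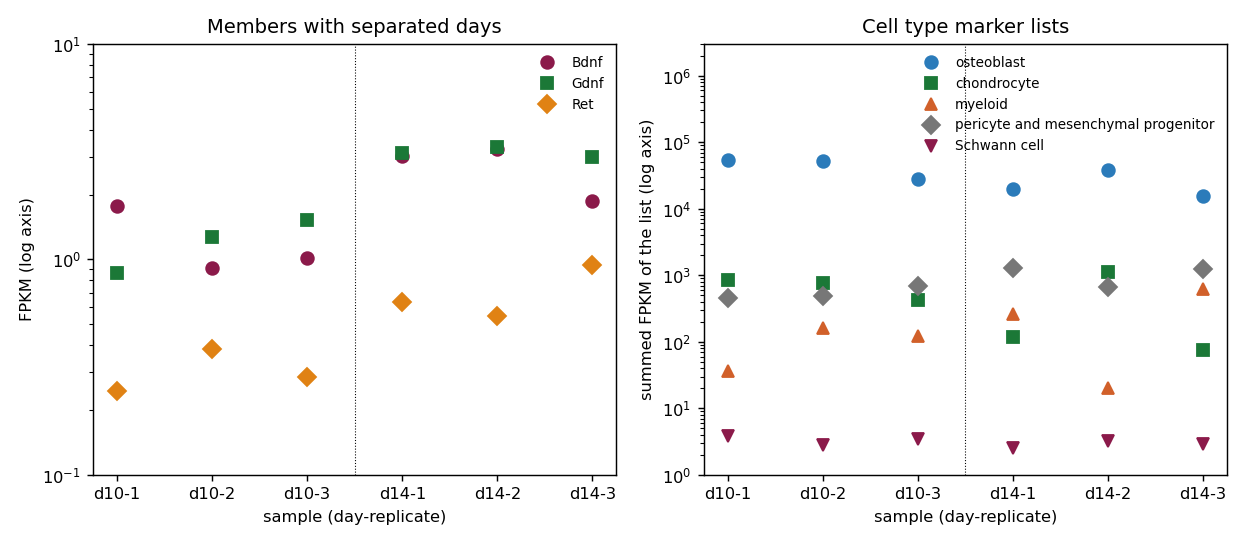
FPKM of *Bdnf*, *Gdnf* and *Ret*, all with separated days (left), and summed FPKM of 5 marker lists (right), both on log axes, by sample (day and replicate on the horizontal axis). In day 14 replicate 2 the chondrocyte sum is the highest (1105 FPKM), the myeloid sum the lowest (20.2 FPKM) and *Gdnf* is 3.32 FPKM. The Schwann cell sum stays between 2.49 and 3.81 FPKM. The pericyte and progenitor sum is 452, 495 and 698 FPKM on day 10 and 1294, 662 and 1253 FPKM on day 14. The endothelial sum, not plotted, is 1.22, 2.63 and 2.99 FPKM on day 10 and 6.03, 3.08 and 3.96 FPKM on day 14. The part of these cells in the members' values was not tested.

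The genes whose values followed a member most closely were found for the 4 members with a mean of at least 1 FPKM, among 11162 genes at that level, by the root mean square difference of log2(FPKM + 0.1) after centring each gene on its mean over the 6 samples. For *Gdnf* they were *Plxdc2* (0.065), which encodes a membrane protein with a plexin domain, and *Fst* (0.101), which encodes follistatin, a secreted antagonist of activins and some BMPs. *Fst* held 31.4, 42 and 50.3 FPKM on day 10 and 91, 90 and 92.5 FPKM on day 14, even on day 14, as *Gdnf* was. For *Bdnf* they were *Gzmb* (0.222) and *Tekt2* (0.225), both at levels of 0.499 to 3.35 FPKM and less close than the nearest genes of *Gdnf*.

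For *Gfra1* the nearest genes were *Loxl2* (0.095), which encodes a collagen-modifying lysyl oxidase, and *Cacnb1* (0.124), a calcium channel subunit gene, and *Loxl2* had its lowest value in day 10 replicate 2 (9.35 FPKM) and its highest in day 14 replicate 3 (25.9 FPKM). For *Ntrk2* they were *Cyp7b1* (0.170), an oxysterol hydroxylase gene, and *Ifih1* (0.182), which encodes a sensor of viral RNA, both with their lowest value in day 14 replicate 2. *Cyp7b1* held 10.5, 9.28 and 13.3 FPKM on day 10 and 22.9, 6.97 and 30.6 FPKM on day 14. With 6 samples and 11162 genes some close matches are to be found for any gene, and the likeness is given as a description of these samples only.

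**Figure D5:**
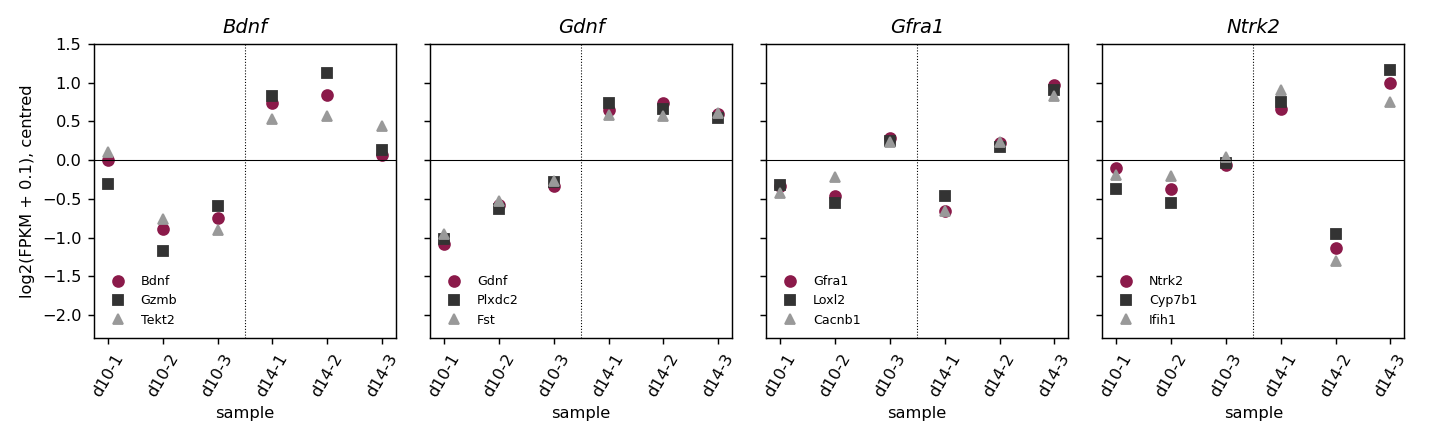
Log2(FPKM + 0.1) centred on each gene's mean over the 6 samples (vertical axis), by sample (day and replicate), for 4 members (purple circles) and the 2 genes nearest to each (black squares and grey triangles). *Gdnf* and its neighbours *Plxdc2* and *Fst* are low on day 10 and even on day 14, *Ntrk2* and its neighbours drop in day 14 replicate 2, and the points of *Bdnf* spread more widely.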

How the data were processed

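ECFP+ OBs of 3 day 10 and 3 day 14 samples were analysed. The libraries were made with the SMART-Seq kit for low input. The authors mapped 75-base single-end reads to mm10 (TopHat2 2.0.13, Bowtie2 2.2.3 and SAMtools 0.1.19 in the submitters' processing notes) and deposited FPKM per gene from Cufflinks 2.2.1. The gene annotation and the handling of reads with several places were not given in the sources used here. In day 14 replicate 2, 25 symbols that had been turned into dates were restored by position, and no member was among them.

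The members and gene lists were chosen with earlier results of these data known, and some genes of the lists are not reported here. limma 3.58.1 in R 4.3.3 (lmFit, eBayes with trend) was applied to log2(FPKM + 0.1) of the 19526 genes whose mean was above 0.1 FPKM. Day was the only factor, with Benjamini-Hochberg adjustment over all genes. The code was also run on simulated data with independent normal noise, which did not copy zeros or low counts. That run does not measure the error of the fit on these data. Fold changes are of FPKM + 0.1, which understates those of low genes. With labels that call the replicates biological and name no animals, p-values measure the spread between these samples.

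Related genes were named if they had a mean of at least 1 FPKM and were more than 2-fold apart or separated between the days, if they passed the adjusted p, or if they were the highest of their list. Marker lists are given by their sums, with the highest gene or genes at 0 named, and the nearest genes by the 2 smallest root mean square differences. Other related genes were named after their values were seen.

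Reads were estimated from the steps of values up to 0.3 FPKM in 1977 genes with 1 transcript of 1500 to 8000 bases, at a fragment length of 220 bases picked by a scan, and 74.7 to 79.7% of the low values came within 0.1 of a whole read. On 1000 usable bases, 3 reads gave 0.385 to 0.658 FPKM. Floors cover counting error only. Gene positions are from GENCODE vM21 (mm10), counted from 1. RefSeq windows were limited to the bases before the start, and the AP-1 motif was narrowed to TGAGTCA after a first search with TGANTCA, which had matched another *Bdnf* window.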

Additional observations from a re-analysis of the deposited data

How the results depend on the processing

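The counts of members rested on single samples and on the added value. Members more than 2-fold higher numbered 2, but 0 with 1 FPKM added and 1 to 3 when 1 sample was left out, with 1 without day 10 replicate 3 and 3 without day 14 replicate 2. Members more than 2-fold lower numbered 0 to 1 (0 as reported) when 1 sample was left out, the 1 being *Ntrk3* without day 14 replicate 1. Over the 14 alternatives, *Gdnf* was more than 2-fold higher in 13 and *Bdnf* in 9. Related genes more than 2-fold higher numbered 4, but 1 with 1 FPKM added, 2 among genes with a mean above 1 FPKM, and 2 to 6 with 1 sample left out, the 2 arising without day 10 replicate 1 or replicate 3. Those lower numbered 3, but 6 with 0.01 FPKM added and 3 to 6 with 1 sample left out, with 5 without day 10 replicate 3 or day 14 replicate 1 and 6 without day 14 replicate 2. *Sorcs2* ran from −0.17 to 0.07 and *Fos* from −0.26 to 0.07 in log2 fold change with 1 sample left out. Genes with a limma adjusted p under 0.05 numbered 3 to 8 with 1 sample left out (8 without day 14 replicate 2, 5 without day 10 replicate 2 or replicate 3), and none was a related gene. The 19526 genes were held fixed in these fits. In an alternative chosen after seeing the data, the mean filter was set again on the 5 remaining samples, and the count was 3 to 76, with 76 of 19674 genes without day 14 replicate 2 and 6 without day 10 replicate 3 or day 14 replicate 1. Without day 14 replicate 2 it then held 1 related gene, *Dok5*, against 0 as reported. Over all genes, 1026 were more than 2-fold higher and 1639 lower, against 275 and 239 with 1 FPKM added, 1678 and 3429 with 0.01 FPKM added, 422 and 423 with a mean above 1 FPKM, 822 and 3308 without day 14 replicate 1, and 1876 and 1475 without day 14 replicate 2. The causes were not tested. Same-numbered samples had deviations with r of 0.058, −0.00584 and 0.0887 across genes, so the numbers were not taken as pairs. With replicate as a block the limma fit gave 2 genes with an adjusted p under 0.05 and 0 related genes. Depth limits *Ntf3* and *Ngfr*, whose listed values lay under the estimated level of 3 reads in every sample. Whether a listed 0 is a failed estimate was not examined.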
